A study of Mus musculus with 8 samples.

Results

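The long noncoding RNAs (lncRNAs) Malat1, Neat1, Miat, Snhg11, Gas5, Snhg1 and Pvt1 were followed in a ribosome immunoprecipitate of mouse hippocampus, in mice with and without a conditional deletion of Ctcf, the gene of a chromatin protein. Members were the non-control array probes that carry the name of a listed lncRNA, 11 of 55663 probes for 6 of the 7 genes. Malat1, Neat1 and Snhg1 had 1 probe each, Snhg11 had 2, and Gas5 and Pvt1 had 3 each. Miat had no probe of that name and is not described further. The arrays measured RNA bound to ribosomes tagged with haemagglutinin (HA) on the ribosomal protein Rpl22 (the RiboTag method) and pulled down with an anti-HA antibody. The 4 CKO mice had loxP sites in both copies of Ctcf and carried Camk2a-Cre and the RiboTag allele. The 4 WT mice carried the same Cre and RiboTag alleles with wild-type Ctcf. Camk2a-Cre is active mainly in excitatory neurons of the forebrain, so tag and deletion share the same driver. All mice were untreated C57BL/6 adults aged at least 3 months, 3 males and 1 female per genotype, with 1 array per mouse. The series' design text describes the controls as carrying the loxP alleles, and the sample labels were followed here.

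LncRNAs are transcripts that are not known to be translated into a conserved protein. Malat1 and Neat1 lie side by side in the genome and stay largely in the nucleus, where Malat1 gathers in nuclear speckles and Neat1 is the scaffold of paraspeckles. Gas5, Snhg1 and Snhg11 are hosts of small nucleolar RNAs (snoRNAs), which are cut from their introns. The spliced RNA of Gas5 and Snhg1 is known to be loaded on ribosomes and removed by nonsense-mediated decay, and Snhg11 is known as a neuronal transcript in mouse brain. Pvt1 neighbours Myc and is best known from tumours. Signal from such RNAs in a ribosome immunoprecipitate can come from RNA on ribosomes or from RNA carried along. Input RNA was not analysed here, so these sources cannot be told apart. In bulk tissue, fewer cells of a type and less RNA per cell cannot be told apart either.

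The probes are 60 bases long and were laid on mm9 by the array files. The sequences of 8 probes are shown, at least 1 for each gene and all 3 for Gas5, because the results that follow describe what these stretches of RNA gave. Capitals mark the polyadenylation hexamers AATAAA or ATTAAA.
Malat1 probe: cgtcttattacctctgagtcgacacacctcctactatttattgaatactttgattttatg
Neat1 probe: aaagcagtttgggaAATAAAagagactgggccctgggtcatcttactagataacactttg
Snhg11 downstream probe: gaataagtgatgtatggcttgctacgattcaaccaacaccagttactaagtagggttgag
Gas5 upstream probe: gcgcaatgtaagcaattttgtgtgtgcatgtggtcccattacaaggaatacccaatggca
Gas5 middle probe: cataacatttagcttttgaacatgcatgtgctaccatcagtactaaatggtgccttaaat
Gas5 downstream probe: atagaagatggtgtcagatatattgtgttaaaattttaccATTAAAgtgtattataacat
Snhg1 probe: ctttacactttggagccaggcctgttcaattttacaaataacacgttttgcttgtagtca
Pvt1 downstream probe: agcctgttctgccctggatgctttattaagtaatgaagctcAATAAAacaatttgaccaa
A hexamer stood on the probe's own strand in 4 of the 11 probes, against 13.68% of all probes, and no member probe held both. The Malat1 and the downstream Pvt1 probe held AATAAA on the other strand. Counting either strand, 5 of the 11 member probes held a hexamer, against 18.63% of all probes. The share of G and C ran from 23.33% in the Gas5 downstream probe to 55% in the Snhg11 upstream probe, and the median of all probes was 43.33%.

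The Malat1 probe lies on the minus strand at chr19:5795713-5795772, at position 6899 of the transcript record that the array files give for it. The Neat1 probe lies on the same strand at chr19:5842564-5842623, at position 2857. The Snhg11 probes lie at chr2:158206508-158206567 and chr2:158211554-158211613, at positions 577 and 5536 of their record. Gas5 is probed at chr1:162966369-162966428, chr1:162967350-162967409 and chr1:162968608-162968667, at positions 1072, 2053 and 2493. The step between the upstream and the middle Gas5 probe is the same on the genome and on the record, so that record has no intron between them. Snhg1 is probed at chr19:8798913-8798972, at position 89. The upstream and downstream Pvt1 probes lie at chr15:62081020-62081079 and chr15:62082471-62082530, at positions 1563 and 3014. The third Pvt1 probe, at chr15:61512565-61512624, belongs to another record and lies on the far side of Myc from the other Pvt1 probes.

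Between 72.2% (CKO 3) and 81.5% (WT 1) of all probes were well above background on an array. The arrays lay on 3 slides: CKO 1, CKO 2, WT 2 and WT 3 on slide 2, CKO 3, CKO 4 and WT 4 on slide 3, and WT 1 on slide 1. The first principal component held 53.24% of the variance. It placed the slide 3 arrays between 31.5 and 166.8, with CKO 3 the farthest, and the others between -83.5 and -13.8. Ctcf, the targeted gene, had 54.4% of the WT signal in CKO ribosomes, a difference of -0.88 ± 0.22 on the log2 scale (SE, n = 4 each), and its groups did not overlap (exact two-sided permutation p = 0.0286, the smallest that 35 splits allow). The adjusted p of Ctcf in the limma fit over all probes was 0.733. All 10 excitatory neuron markers, Camk2a and Slc17a7 among them, were well above background on all 8 arrays. So were 9 of 10 markers each of interneurons, oligodendrocytes, astrocytes and endothelial cells, 10 of 12 of microglia and 8 of 10 of choroid plexus. Of these markers, Gja1 of astrocytes and Aqp1 of choroid plexus were not well above background on any array.

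LncRNA signal was plain in the immunoprecipitate of both genotypes: 10 of the 11 probes were well above background on all 8 arrays, against 69.64% of all probes. Levels are given as log2 of the processed signal minus the 75th percentile of the array, so that 0 is a probe brighter than 75% of its array. The percentile of a probe among all non-control probes is given beside it. Brightness depends on the probe's sequence as well as on the RNA, so the percentiles describe probes and do not order the transcripts. In WT ribosomes 9 of the 11 probes were above the 50th percentile and 4 were above the 90th, with a median at the 72.2nd percentile.

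**Figure D1:**
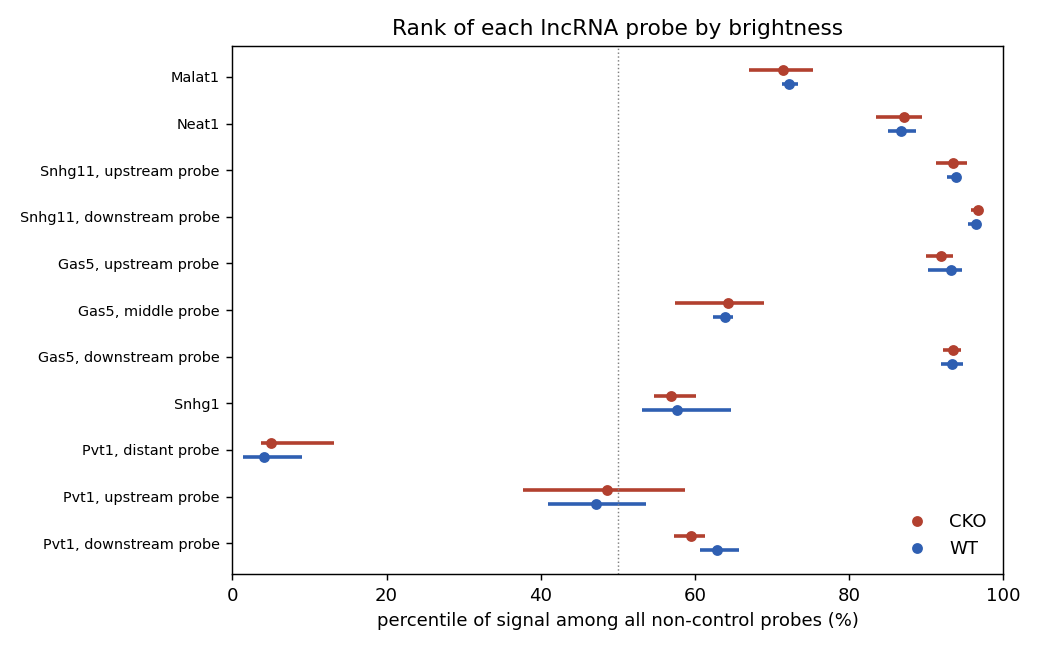
Percentile of signal of each lncRNA probe among all non-control probes (x axis, %), CKO (red) above WT (blue). Dots give the percentile of the mean over 4 arrays and bars the range over single arrays; both Snhg11 probes and the outer Gas5 probes lie above the 90th percentile of the mean in both genotypes, and the distant Pvt1 probe lies near the bottom.

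Among the nuclear RNAs, the Neat1 probe stood at the 87.1st percentile in CKO and at the 86.7th in WT. Over single arrays it ran from 83.5 to 89.5 in CKO and from 85.0 to 88.7 in WT. The Malat1 probe stood at 71.4 in CKO and 72.2 in WT, with single arrays from 67.0 to 75.3 in CKO and from 71.4 to 73.4 in WT. Both nuclear RNAs were therefore measured far from the floor of the array in every mouse. The snoRNA hosts were spread more widely. Snhg11 stood at 93.5 in CKO and 93.8 in WT with its upstream probe, and at 96.7 in CKO and 96.4 in WT with its downstream probe. The Gas5 upstream probe stood at 91.9 in CKO and 93.2 in WT, and the downstream one at 93.5 in CKO and 93.3 in WT. The middle Gas5 probe, of the same transcript record, stood at 64.3 in CKO and 63.9 in WT. The Snhg1 probe stood at 56.9 in CKO and 57.6 in WT. Pvt1 stood at 48.5 in CKO and 47.2 in WT with its upstream probe and at 59.4 in CKO and 62.9 in WT with its downstream probe. The distant Pvt1 probe, at 4.97 in CKO and 4.06 in WT, was not well above background on any array, so it has no fold change and was not tested.

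No member probe passed the test for a difference between CKO and WT. In the limma fit over 44316 probes, 0 probes of the array passed an adjusted p of 0.05 (0%), and 0 of the 10 member probes did. Without adjustment 2377 probes (5.36%) had a p under 0.05, 896 of them higher in CKO (2.02%) and 1481 lower (3.34%), and 0 of the 10 members did. Groups did not overlap for 1473 probes (3.32%), 758 of them higher in CKO (1.71%) and 715 lower (1.61%), and for 0 of the 10 members. Adjusted p-values of the members ran from 0.733 to 0.956. The difference CKO minus WT was above 0 for 4 members and below 0 for 6, with a median of -0.054 and a range from -0.39 to 0.24. Over all probes tested the median was -0.11, 38.2% of the differences were above 0, and the middle 50% ran from -0.33 to 0.13. The shift of all probes depended on the scaling: it was 0.042 with median scaling and -0.01 with quantile normalization. With median scaling 7 members were above 0 and their median was 0.094. With quantile normalization 5 were, with a median of -0.0012. The shift also moved with signal, over 10 equal bins of probes by mean signal. The median was -0.58 in the dimmest bin and 0.15 in the brightest, and -0.12 and 0.03 in the same bins with quantile normalization.

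**Figure D2:**
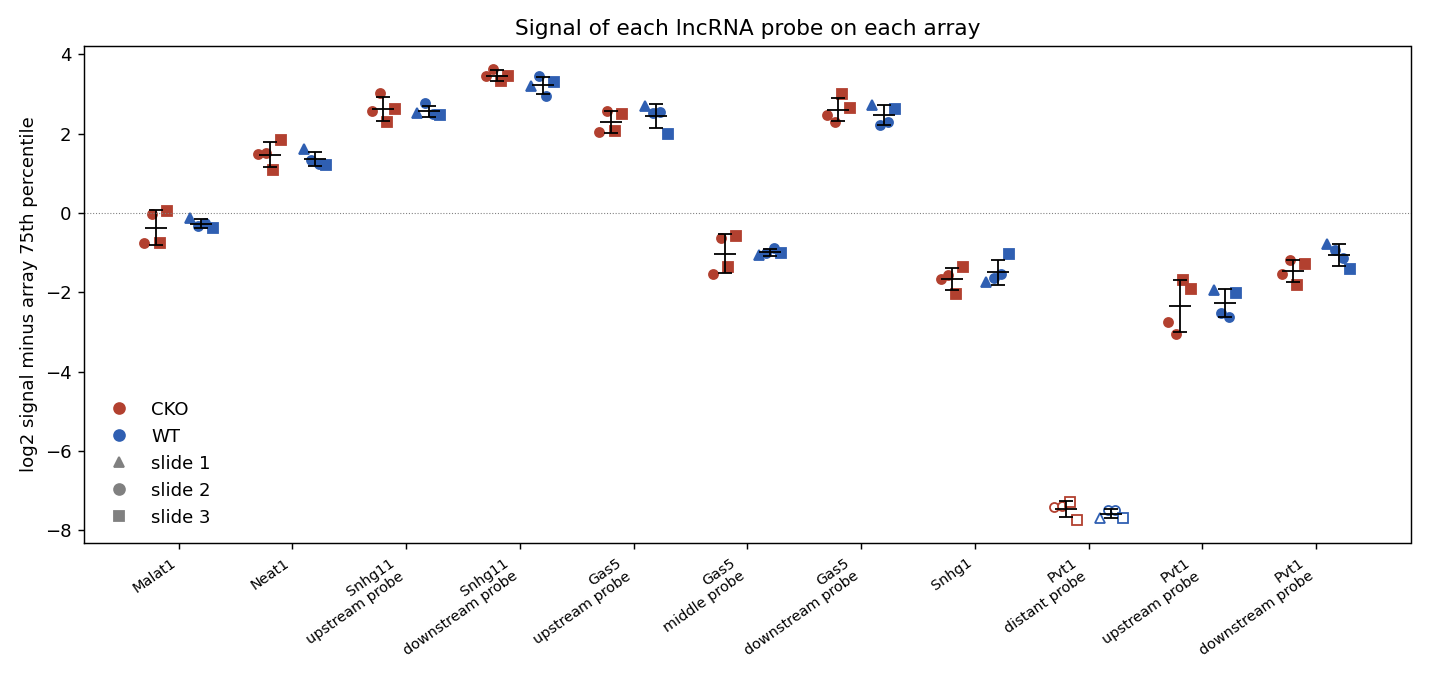
Signal of each lncRNA probe on each array (y axis, log2 minus the 75th percentile of the array), CKO (red) left of WT (blue), with the slide as the marker shape and open markers where a probe was not well above background. Lines give the mean and SD of 4 arrays; CKO and WT overlap for all 11 probes, and the slide 2 arrays of both genotypes are the lowest for the upstream Pvt1 and the downstream Gas5 probe.

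The Malat1 probe read -0.75, -0.033, -0.76 and 0.041 in CKO 1 to 4, against -0.12, -0.32, -0.27 and -0.37 in WT 1 to 4. CKO 2 and CKO 4 lay above all WT arrays and CKO 1 and CKO 3 below all of them. The CKO mean was -0.37 ± 0.44 and the WT mean -0.27 ± 0.11 (SD, n = 4 each). The fold of CKO over WT was 0.93 with a 95% interval from 0.65 to 1.33 (limma adjusted p = 0.859). Within slides the difference was -0.099 on slide 2 and 0.016 on slide 3. For this probe the CKO arrays were thus spread more widely than the WT arrays around a similar mean. This difference in spread was not tested.

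The Neat1 probe read 1.49, 1.51, 1.07 and 1.83 in CKO 1 to 4, against 1.61, 1.35, 1.24 and 1.22 in WT 1 to 4. The lowest and the highest array were both CKO, so the groups overlapped along the whole WT range. The means were 1.48 ± 0.31 in CKO and 1.35 ± 0.18 in WT (SD, n = 4 each), a fold of 1.09 with a 95% interval from 0.80 to 1.49 (limma adjusted p = 0.815). The difference was 0.21 within slide 2 and 0.23 within slide 3, against 0.12 over all arrays. With the slide as a fixed block it was 0.22 (limma adjusted p = 0.81). With quantile normalization it was 0.058, and probes of the same signal bin had a median of 0.11. Neat1 did not pass the test in any of these fits.

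Snhg11, the neuronal snoRNA host, was bright with both probes. Its downstream probe read 3.45, 3.65, 3.33 and 3.46 in CKO 1 to 4, against 3.21, 3.46, 2.94 and 3.30 in WT 1 to 4. Every CKO array lay above WT 1, WT 3 and WT 4, and CKO 2 alone lay above WT 2. The mean was 3.47 ± 0.13 in CKO and 3.23 ± 0.22 in WT (SD, n = 4 each). The fold was 1.18 with a 95% interval from 0.91 to 1.54 (limma adjusted p = 0.733), the highest fold among the members tested. The difference was 0.35 within slide 2 and 0.087 within slide 3. Over all arrays it was 0.24, where the brightest of the 10 signal bins had a median of 0.15, and with quantile normalization it was 0.11. The upstream probe gave 2.58, 3.02, 2.29 and 2.62 in CKO 1 to 4, against 2.53, 2.77, 2.49 and 2.46 in WT 1 to 4. CKO 2 was the highest and CKO 3 the lowest array of this probe. Its fold was 1.05 with a 95% interval from 0.78 to 1.41 (limma adjusted p = 0.893), and its sign turned with quantile normalization, to -0.042. The Pearson correlation of the 2 Snhg11 probes over the 8 arrays was 0.65.

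Gas5, which hosts box C/D snoRNAs, was read by 3 probes, of which the downstream one ran apart from the others. The upstream probe read 2.04, 2.58, 2.06 and 2.49 in CKO 1 to 4, against 2.69, 2.53, 2.54 and 2.01 in WT 1 to 4. The highest and the lowest reading were both from WT mice. The fold was 0.90 with a 95% interval from 0.64 to 1.26 (limma adjusted p = 0.797), and the difference was -0.23 within slide 2 but 0.27 within slide 3. The middle probe read -1.55, -0.62, -1.36 and -0.59 in CKO 1 to 4, against -1.06, -1.02, -0.88 and -1.02 in WT 1 to 4. As with Malat1, CKO 2 and CKO 4 lay above all WT arrays and CKO 1 and CKO 3 below them. The fold was 0.98 with a 95% interval from 0.66 to 1.43 (limma adjusted p = 0.956), and the difference was 0.055 with quantile normalization against -0.036 in the main scaling. The downstream probe read 2.48, 2.30, 2.99 and 2.65 in CKO 1 to 4, against 2.73, 2.21, 2.29 and 2.63 in WT 1 to 4. Every array of slide 2, of either genotype, lay below every array of slides 1 and 3. Its fold was 1.10 with a 95% interval from 0.80 to 1.53 (limma adjusted p = 0.802), and the difference was 0.14 within slide 2 and 0.19 within slide 3. Over the 8 arrays the upstream and middle probes had a Pearson correlation of 0.66 with each other, while the downstream probe had -0.44 with the upstream and -0.35 with the middle one. The downstream probe followed the first principal component, with a correlation of 0.87, and the part of slide and array quality in its values was not tested.

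Snhg1, the host of several box C/D snoRNAs next to Slc3a2, read -1.68, -1.56, -2.05 and -1.37 in CKO 1 to 4, against -1.75, -1.64, -1.55 and -1.05 in WT 1 to 4. CKO 3 was the lowest array and WT 4, on the same slide, the highest. The means were -1.67 ± 0.29 in CKO and -1.50 ± 0.31 in WT (SD, n = 4 each), a fold of 0.89 with a 95% interval from 0.63 to 1.25 (limma adjusted p = 0.782). The difference was -0.024 within slide 2 and -0.66 within slide 3, where WT 4 was the lone WT array.

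Pvt1 showed the largest difference among the members tested, with its downstream probe. It read -1.55, -1.19, -1.82 and -1.28 in CKO 1 to 4, against -0.79, -0.93, -1.14 and -1.42 in WT 1 to 4. The 3 brightest arrays were WT 1, WT 2 and WT 3, and WT 4 lay among the CKO arrays. The means were -1.46 ± 0.28 in CKO and -1.07 ± 0.28 in WT (SD, n = 4 each), a difference of -0.39 ± 0.21 (SE). The fold was 0.76 with a 95% interval from 0.55 to 1.06 (limma unadjusted p = 0.0957, adjusted p = 0.733). Within slides the difference was -0.34 on slide 2 and -0.13 on slide 3, and it was -0.30 with quantile normalization. This probe also followed the first principal component, with a correlation of -0.81, whose part in the difference was not tested. The upstream probe read -2.74, -3.06, -1.69 and -1.91 in CKO 1 to 4, against -1.94, -2.53, -2.63 and -2.02 in WT 1 to 4. Again the slide 2 arrays of both genotypes lay below all others. Its fold was 0.95 with a 95% interval from 0.56 to 1.61 (limma adjusted p = 0.936), and the difference was -0.32 within slide 2 and 0.22 within slide 3. The Pearson correlation of the upstream and downstream Pvt1 probes was -0.23.

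**Figure D3:**
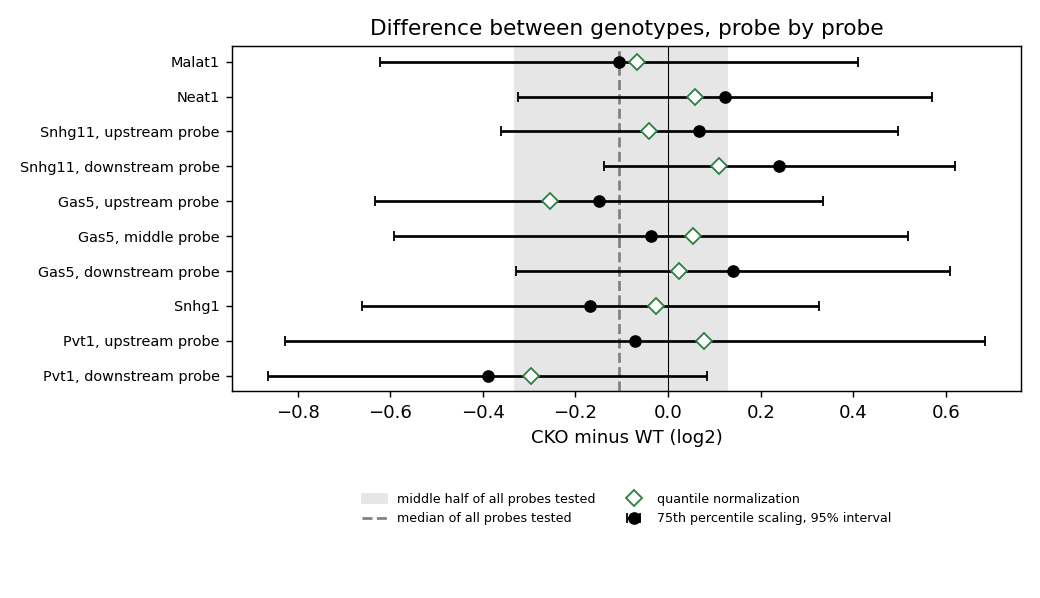
Difference CKO minus WT of each lncRNA probe tested (x axis, log2) with 75th percentile scaling (black, 95% interval from limma) and with quantile normalization (green). The grey band is the middle 50% of all 44316 probes and the dashed line their median of -0.11; every interval includes 0.

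The spread between arrays sets what they could show, and with 1 array per mouse it holds mouse, slide and array variation together. The pooled SD within genotypes ran from 0.18 for the Snhg11 downstream probe to 0.53 for the Pvt1 upstream probe. It was below the median of all probes, 0.35, for 8 of the 10 members. The 95% intervals of the fold reached down to 0.55 (Pvt1 downstream) and up to 1.61 (Pvt1 upstream). For Neat1 and both Snhg11 probes they lay between 0.78 and 1.54 with 75th percentile scaling. The bounds move with the scaling: with median scaling the difference was 0.27 for Neat1, 0.39 for Snhg11 downstream and 0.22 for Snhg11 upstream, against 0.12, 0.24 and 0.068.

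Other probes of the array lie at the same loci under other names, and they were picked by position after the files had been seen. There were 39, of which 37 were tested. In this set 0 passed the adjusted threshold of limma, 2 had an unadjusted p under 0.05, where 5.36% of all probes did, and 2 had groups that did not overlap, where 3.32% of all probes did. These counts over so few probes do not set the loci apart. Their median difference was -0.061.

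At the Malat1 locus, chr19:5795689-5802671, all 11 probes on the strand of the gene were well above background on all 8 arrays, from the 68.0th to the 99.2nd WT percentile. The 5 probes near the 3′ end, Malat1's own included, had differences from -0.32 to -0.11. The 6 probes farther inside the transcript had differences from 0.053 to 0.38, of which 2 were below 0 with quantile normalization (-0.029 and -0.052). Of these, the probe at chr19:5802130-5802189 read 5.09, 5.28, 5.30 and 5.06 in CKO 1 to 4, against 4.90, 4.99, 4.96 and 4.70 in WT 1 to 4. All CKO arrays were above all WT arrays, with a difference of 0.29 ± 0.15 (SE, n = 4 each; limma unadjusted p = 0.082, adjusted p = 0.733). The interior probes lay in the brightest 2 of the 10 signal bins, whose medians were 0.11 and 0.15, and the 3′ probes in duller bins, with medians of -0.031 and -0.11. With quantile normalization the difference of this probe was 0.22. Probes on the opposite strand were bright as well, with the 3 at this locus between the 93.9th and 99.4th WT percentile. The labels do not say that strand was kept in the amplified cDNA, so a transcript and its antisense partner cannot be told apart.

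An older name of Malat1, NEAT2, marks a probe with exactly the Malat1 probe's sequence. It read -0.42, -0.27, -0.80 and -0.13 in CKO 1 to 4, against 0.13, -0.0049, -0.16 and -0.30 in WT 1 to 4. Its difference was -0.32, against -0.11 for the spot named Malat1, and the wide split of CKO arrays seen there was narrower here. The typical gap between these identical probes on the same array was 0.20. Over all 60 pairs of identical probes under different names the median gap on an array was 0.12 and the median gap between their differences was 0.087, with a 95th percentile of 0.51. The identical twin of the Pvt1 downstream probe was closer, with a gap of 0.076. It read -1.46, -1.47, -1.82 and -1.60 in CKO 1 to 4, against -0.86, -0.998, -1.14 and -1.50 in WT 1 to 4. Its difference was -0.46 ± 0.19 (SE, n = 4 each; limma unadjusted p = 0.0345, adjusted p = 0.733), and WT 4 again lay within the CKO range. The 4 probes tested at chr15:62081020-62082530, this identical pair included, all had differences below 0, from -0.58 to -0.072. With quantile normalization the upstream Pvt1 probe turned to 0.078 and the other 3 stayed below 0.

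At the short form of Neat1, chr19:5842306-5845476, 6 probes lay on the strand of the gene and all were well above background on all 8 arrays. All 6 lie within chr19:5842534-5842845, near the 3′ end, so they describe a small part of the short form. Their differences ran from 0.035 to 0.12 and 0 had an unadjusted p under 0.05 (limma). With quantile normalization 2 of them were below 0 (-0.02 and -0.0024). Probes that share bases with the Neat1 probe, or none at all, lay within this narrow range of differences, although they spanned the 60.03rd to the 87.2nd WT percentile. The probes on either side of the Neat1 probe each share 30 bases with it and are shown because they tile this stretch. Capitals mark the shared bases.
NEAT1 probe, 5′ side: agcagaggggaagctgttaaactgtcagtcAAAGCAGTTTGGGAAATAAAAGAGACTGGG
NEAT1 probe, 3′ side: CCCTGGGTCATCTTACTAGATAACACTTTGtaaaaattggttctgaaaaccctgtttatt
The probe on the 5′ side, at chr19:5842594-5842653, stood at the 87.2nd WT percentile, close to the Neat1 probe itself, and the one on the 3′ side, at chr19:5842534-5842593, at the 67.9th. The 5′ probe had a difference of 0.05 and the 3′ probe one of 0.054. Opposite-strand probes at this locus numbered 11 and stood between the 28.0th and the 98.6th percentile. Of their differences 2 were above 0 and 9 below 0, from -0.79 to 0.25 with a median of -0.091. Among these 11 probes, 0 had an unadjusted p under 0.05 (limma). Farther downstream on the strand of Neat1, at chr19:5834117-5835940, 3 probes were present, of which 2 were tested, with differences of -0.37 and -0.49 (unadjusted p = 0.289 and 0.133, limma). These 2 probes lay in signal bins with medians of -0.20 and -0.11. With quantile normalization their differences were -0.18 and -0.41. In the main scaling the sign there was opposite to that of the 6 probes on the gene's strand at the short form. The difference between both stretches was not tested.

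At Gas5, 2 probes without the gene's name lay on its strand, side by side, between the middle and downstream probes. The one at chr1:162967656-162967715 had a difference of 0.68 ± 0.32 (SE; limma unadjusted p = 0.0647). The next, at chr1:162967716-162967775, read -2.50, -2.54, -3.15 and -2.61 in CKO 1 to 4, against -2.37, -2.15, -2.21 and -2.30 in WT 1 to 4. All CKO arrays were below all WT arrays, with a difference of -0.44 ± 0.18 (SE, n = 4 each; limma unadjusted p = 0.0409, adjusted p = 0.733). With quantile normalization the difference was -0.25. Adjacent stretches of the Gas5 locus thus gave differences of opposite sign, and neither passed the test over all probes.

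**Figure D4:**
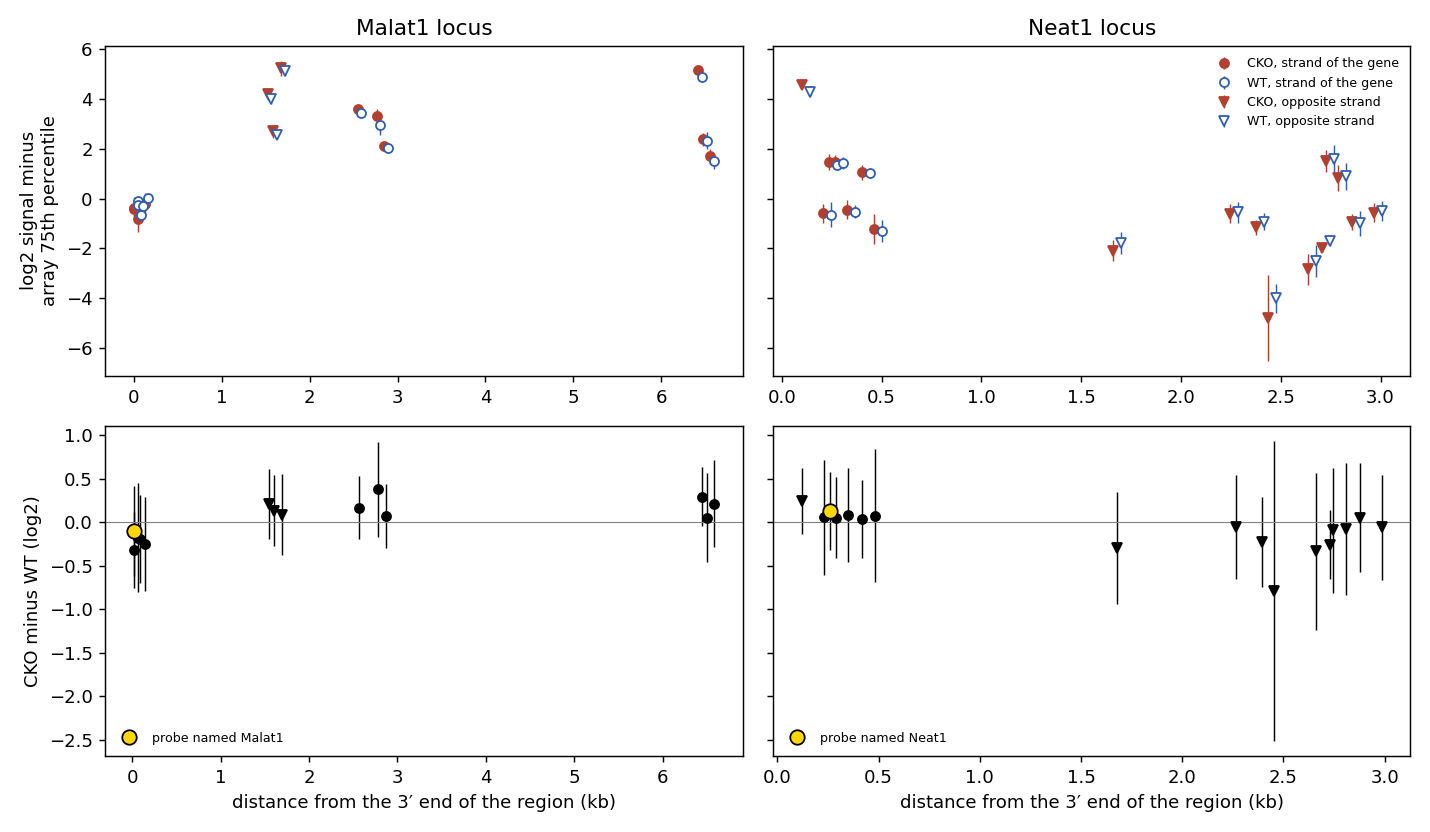
All probes at the Malat1 (left) and Neat1 (right) loci against distance from the 3′ end of the region (x axis, kb). Top: mean signal and SD of 4 arrays (log2 minus the 75th percentile of the array) in CKO (red, filled) and WT (blue, open), with circles on the strand of the gene and triangles on the opposite strand; bottom: CKO minus WT (log2) with 95% intervals, where Malat1 probes lie below 0 near the 3′ end and above 0 farther in, and the 6 Neat1 probes on its strand lie just above 0. With quantile normalization 2 of the 6 inner Malat1 probes and 2 of the 6 Neat1 probes were below 0.

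Genes of the pathways around these lncRNAs were described from lists, each gene by its brightest probe, and in every list 0 genes rose and 0 fell at an adjusted p of 0.05 (limma). The all-probe median beside which these counts stand was -0.11, with 38.2% of differences above 0, but bright probes had medians above 0. At an unadjusted p under 0.05, 2.02% of all probes were higher in CKO and 3.34% lower. With quantile normalization the list medians, in the order of the lists here, were -0.021, 0.16, 0.15, 0.022, 0.072, 0.24 and 0.13. The list of further lncRNAs held 44 names, among them Gomafu, another name of Miat, and the protein-coding gene Trerf1. Of these names 30 had a probe and 28 were tested. Among these 3 were higher and 1 lower in CKO at an unadjusted p under 0.05, 12 differences were above 0 and the median was -0.07. Zfhx2os, an antisense transcript of the Zfhx2 gene, averaged -1.10 in CKO and -2.01 in WT, a difference of 0.91 ± 0.31 (SE, n = 4 each; limma unadjusted p = 0.0175). Jpx, an activator of Xist, averaged -4.49 in CKO and -3.75 in WT, a difference of -0.73 ± 0.26 (SE; limma unadjusted p = 0.0218). Both had groups that overlapped. With quantile normalization the difference was 1.03 for Zfhx2os and -0.41 for Jpx.

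Of 34 snoRNA host genes listed beside the members, 26 were tested. Among these 4 were higher and 0 lower in CKO at an unadjusted p under 0.05 (limma), 18 differences were above 0 and the median was 0.092. Snhg17, another noncoding snoRNA host, read -0.019, -0.19, -0.39 and -0.21 in CKO 1 to 4, against -0.90, -0.81, -0.62 and -1.04 in WT 1 to 4. All CKO arrays were above all WT arrays, a difference of 0.64 ± 0.16 (SE, n = 4 each; limma unadjusted p = 0.00358, adjusted p = 0.733). Eif4a2, a translation initiation helicase whose introns hold snoRNAs, read 4.45, 4.56, 4.80 and 4.69 in CKO 1 to 4, against 4.21, 4.02, 4.06 and 4.38 in WT 1 to 4. Its groups did not overlap either, with a difference of 0.46 ± 0.16 (SE, n = 4 each; limma unadjusted p = 0.0187, adjusted p = 0.733). Snhg17 and Eif4a2 were named because they had the smallest p of the 26 hosts tested, so they do not stand for the list. Over all probes tested, groups did not overlap for 3.32%. The groups overlapped for every probe named Gas5, Snhg1 or Snhg11. At the Gas5 locus, a probe on the gene's strand without its name had groups that did not overlap, with CKO lower. Whether the member hosts differ from the other hosts was not tested.

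Genes of the proteins that bind or process these RNAs mostly had RNA signal differences above 0 that did not pass the test. Of 16 paraspeckle protein genes, all tested, 14 were above 0, with a median of 0.20, and 0 had an unadjusted p under 0.05 (limma). Dazap1 averaged 2.35 in CKO and 2.03 in WT, and Cpsf6, a cleavage factor subunit, averaged -2.02 in CKO and -1.47 in WT. Of 22 nuclear speckle and splicing genes, all tested, 17 were above 0, with a median of 0.092, and 1 was higher at an unadjusted p under 0.05. This was Acin1, an RNA-binding protein of the exon junction, with a difference of 0.51 ± 0.22 (SE; limma unadjusted p = 0.0442). The splicing factor Sf1 followed with 0.36 ± 0.16 (SE; limma unadjusted p = 0.0532). Of 19 nonsense-mediated decay genes 18 were tested and 14 were above 0, with a median of 0.10 and 1 higher at an unadjusted p under 0.05. The release factor gene Gspt1 had a difference of 0.47 ± 0.20 and the exon junction gene Casc3 one of 0.29 ± 0.19 (SE; limma unadjusted p = 0.0408 and 0.153). Of 16 snoRNP genes 15 were tested and 13 were above 0, with a median of 0.21 and 1 higher at an unadjusted p under 0.05. Pih1d1, a snoRNP assembly factor, averaged 0.14 in CKO and -0.56 in WT, a difference of 0.70 ± 0.28 (SE; limma unadjusted p = 0.0322). Nolc1, a nucleolar chaperone of snoRNPs, had a difference of 0.32 ± 0.16 (SE; limma unadjusted p = 0.0851).

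Of 15 genes linked to the members by earlier work, all tested, 12 were above 0, with a median of 0.12, and 1 was lower in CKO at an unadjusted p under 0.05. This was Myc, the neighbour of Pvt1. Myc read -3.39, -3.35, -4.13 and -3.05 in CKO 1 to 4, against -2.42, -2.58, -2.89 and -2.50 in WT 1 to 4. All CKO arrays were below all WT arrays, a difference of -0.89 ± 0.24 (SE, n = 4 each), which did not pass the test over all probes (limma unadjusted p = 0.00575, adjusted p = 0.733). The Pvt1 downstream probe and Myc were both below 0, but only 38.2% of the differences of all probes were above 0. With quantile normalization they were -0.30 and -0.64, and the upstream Pvt1 probe was 0.078. A link between Pvt1 and Myc was not tested.

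The probes most like each member over the 8 arrays were named from the 22257 probes with another gene's symbol that were well above background on every array. Each Pearson correlation is the highest of that many and covers 8 arrays that share 3 slides, so it is a description of these arrays. For Malat1 they were Stab1 (0.97), Nudt13 (0.96) and Arsk (0.95). For Neat1 they were Orc4 (0.95), Nbas (0.93) and 4930515G01Rik (0.93). For Snhg1 they were Zfyve27 (0.94), Plxna3 (0.93) and Syt12 (0.93). With genotype and slide means removed, the correlations were 0.969 to 0.998 for Malat1, 0.912 to 0.990 for Neat1 and 0.946 to 0.978 for Snhg1. For the other 3 probes compared they were 0.936 to 0.968 (Gas5 downstream), 0.955 to 0.985 (Pvt1 downstream) and 0.841 to 0.8965 (Snhg11 downstream). Removing these means from 8 arrays leaves little variation to correlate, so high values are easily reached. The Gas5 downstream probe was most like Xpot (0.99), Pds5b (0.99) and Acsl4 (0.99), and the Pvt1 downstream probe was most like Alms1 (0.99), Wnk3 (0.98) and Ltb4r2 (0.98). Of the 6 probes compared in this way, these were the ones with the strongest correlation with the first principal component (0.87 and -0.81). For the Snhg11 downstream probe they were Actg1 (0.90), Pycrl (0.90) and Ttr (0.90). Ttr encodes transthyretin, the main marker of choroid plexus. The linear signal of the 10 choroid plexus markers was summed, in multiples of the 75th percentile signal of the array. The sum ran from 13.97 to 22.7 in CKO and from 9.07 to 13.7 in WT. Of the 8 choroid plexus markers tested, 5 had differences above 0, with a median of 0.28. Marker lists of the other cell types also had median differences above 0, from 0.11 to 0.23, except endothelial cells (-0.145). The part of choroid plexus signal in the Snhg11 values was not tested.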

How the data were processed

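The deposited scanner files hold a spot intensity for the red (Cy5) channel of 1-colour Agilent arrays, made with Agilent Feature Extraction 11.5 per the submitters' processing notes, with mm9 probe coordinates per the file headers. A whole transcriptome kit amplified the RNA before labelling, per the labels' protocols. The authors also deposited a table of linear intensity values per spot, used as an alternative, whose centring is unknown. Its column medians were 1507, 1362, 1987 and 1561 for CKO 1 to 4 and 1309, 1313, 1263 and 1645 for WT 1 to 4, and it was blank for 7359 to 11803 spots an array.

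The processed signal (background-subtracted, with a small surrogate near 0) was taken as log2 minus the 75th percentile of each array. Outlier-flagged spots were left out and spots of a probe averaged, which kept 55663 of 55681 probes. A probe had to be well above background on 4 or more of the 8 arrays, which left 44316. These were tested two-sided with limma's lmFit and eBayes (limma 3.58.1, R 4.3.3). P-values were adjusted over all 44316 after Benjamini and Hochberg, with a threshold of 0.05. The labels call the mice biological replicates. No spot was saturated (0). The number of arrays limits the precision.

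For each member the 3 probes with the highest Pearson correlation were named, and from each list up to 3 genes past the threshold or otherwise the 2 with the smallest p. A probe's distance follows the files' coordinates. The older name NEAT2 was matched to Malat1 by position and sequence. Members, lists, loci and tests were chosen with earlier results of these data known. Alternatives changed the scaling, the dim-probe filter, the probe per gene, the slide, sex and replicate terms, and left out each array.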

Additional observations from a re-analysis of the deposited data

How the results depend on the processing

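No member passed the threshold in any of the 22 other fits (lowest limma adjusted p 0.382, against 0.733). Of 216 recomputed member differences 187 kept their direction and 29 did not. Those that turned were, with median scaling, Malat1 (0.042), Pvt1 upstream (0.076) and Gas5 middle (0.11). With quantile normalization they were Snhg11 upstream (-0.042), Pvt1 upstream (0.078) and Gas5 middle (0.055), and with normexp and quantile normalization the same probes at -0.036, 0.052 and 0.049. With the authors' deposited values they were Malat1 (0.011), Snhg11 upstream (-0.083), Pvt1 upstream (0.14), Snhg1 (0.054) and Gas5 middle (0.15). Within slide 3 they were Gas5 upstream (0.27), Malat1 (0.016), Snhg11 upstream (-0.0042), Pvt1 upstream (0.22) and Gas5 middle (0.045). Leaving out each array gave ranges of -0.24 to 0.021 for Malat1, -0.29 to 0.16 for Pvt1 upstream, -0.18 to 0.14 for Gas5 middle and -0.064 to 0.18 for Snhg11 upstream, which include a turned sign. They were 0.0034 to 0.26 for Neat1, 0.15 to 0.32 for Snhg11 downstream, -0.51 to -0.27 for Pvt1 downstream, -0.27 to -0.018 for Snhg1, -0.30 to -0.067 for Gas5 upstream and 0.012 to 0.24 for Gas5 downstream. Ctcf ran from -1.004 to -0.77 and the members' median from -0.20 to 0.071.

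The count of probes past the threshold on the array, 0 in the main setting, was 3 with no filter on dim probes, 2 with probes well above background on all 8 arrays, 5 with normexp and quantile normalization, 1 with 1 probe per gene and 1 with the slide as a random block. It was 0 to 1 with each array left out, and 1 without WT replicate 2. The cause was not tested. The median WT percentile of the members was 77.6 with the deposited values, 74.2 over the probes kept by the filter, and 71.8 to 72.4 with each WT array left out.

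Replicate numbers are shared between the genotypes. Same-numbered arrays had correlations of their deviations from -0.39 to 0.34, above 0.1 for 1 pair. The arrays also differ by slide, so these values cannot decide whether the numbers pair the mice. The main fit assumed no pairing. With the replicate block 0 probes and 0 members passed (limma). The other limits are the lone WT array on slide 3, the lack of input RNA here, and the single probe named Malat1, Neat1 or Snhg1.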
